A study of Mus musculus with 23 samples.

Results

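Axl, Mertk, Pros1, Mfge8 and Cd47 are genes of the machinery by which phagocytes recognise dying cells or leave living ones alone, and their transcripts were followed in the mouse cortex after a systemic challenge with bacterial lipopolysaccharide (LPS). They were chosen by name and make up 5 of the 770 genes of the nCounter Mouse Neuroinflammation panel, which counts mRNA molecules directly with color-coded probes and without amplification. A dying cell exposes phosphatidylserine on its surface, and secreted bridging proteins bind this lipid and link the cell to a receptor on the phagocyte. Protein S, encoded by Pros1, bridges to Mertk, a receptor tyrosine kinase of the TAM family, to which Axl also belongs. The TAM receptor Tyro3 and the TAM ligand Gas6 were not measured. The product of Mfge8 bridges to integrins that contain the alpha-v chain, and CD47 on healthy cells acts as a don't-eat-me signal. In the brain, microglia and astrocytes both use TAM receptors to take up dying cells and synapses.

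Total RNA of frozen cortex was measured in 23 wild-type (WT) mice aged 12 wk, all of the B6FVB strain. Their line, CamKIIα-TTA/tetO-APP102 x FVB, carries transgenes that WT animals lack. The 6 Dox+LPS mice had eaten chow with doxycycline (dox, 100 mg/kg) from postnatal day 3 to the age of 6 wk, had then gone without it for 6 wk and were injected once with 2 mg/kg LPS 18 h before harvest. The 5 LPS mice received the injection without earlier dox. The 4 Dox mice had the dox and the washout without LPS, and the 8 Untreated mice had neither. Mice of both these groups were injected with saline, which comes from the publication and not from the sample labels. By the publication, stool was taken from the LPS-injected mice at 6 and 12 wk but not from the saline-injected mice. LPS and this earlier sampling therefore cannot be told apart. Males numbered 3 of 6 in Dox+LPS, 3 of 5 in LPS, 1 of 4 in Dox and 6 of 8 in Untreated.

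Panel counts summed to between 645971 and 804471 per mouse, and 609 to 694 of the 770 genes were above background, for which negative control probes served (their mean with 2 SD added). All 5 genes were above it in all 23 mice, with a lowest raw count of 103 for Pros1. The LPS-injected mice shared a cartridge that held no saline-injected mouse, and the saline-injected mice shared another, so that LPS and cartridge cannot be told apart. The Dox+LPS mice were in lanes 7 to 12, the LPS mice in lanes 1 to 6, the Dox mice in lanes 9 to 12 and the Untreated mice in lanes 1 to 8. A pair of mice stood apart from their groups in Lcn2, an acute-phase gene strongly induced by LPS. LPS replicate 3 had 5449 normalized counts of Lcn2, against 10670 to 11940 in the other 4 LPS mice. Untreated replicate 3 had 733, against 13.6 to 128.5 in the other 7 Untreated mice. The pair was picked with these values in view, so results without it are descriptive. Neuron markers summed to between 37603 and 49280 normalized counts over the mice, and all 9 measured ones were above background in every mouse.

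The promoters of Pros1 and Mfge8 are shown because these were the genes whose transcripts changed. Each stretch runs from 250 bases before to 50 bases after the RefSeq transcription start (GRCm38.p6), read 5′ to 3′ on the gene's own strand. It was searched on both strands for the letters TTCNNNGAA (bound by STAT factors), GGGACTTTC (most of a site of NF-kB) and GAAANNGAA (most of the core of interferon-stimulated elements). Capitals mark the only match.
Pros1, chr16:62854057-62854356, plus strand: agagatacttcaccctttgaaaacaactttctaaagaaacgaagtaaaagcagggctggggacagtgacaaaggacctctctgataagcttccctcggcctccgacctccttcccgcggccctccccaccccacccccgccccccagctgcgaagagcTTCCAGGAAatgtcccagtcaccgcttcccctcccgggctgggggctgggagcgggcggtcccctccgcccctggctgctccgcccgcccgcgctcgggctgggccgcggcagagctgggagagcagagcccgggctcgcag
Mfge8, chr7:79149011-79149310, minus strand: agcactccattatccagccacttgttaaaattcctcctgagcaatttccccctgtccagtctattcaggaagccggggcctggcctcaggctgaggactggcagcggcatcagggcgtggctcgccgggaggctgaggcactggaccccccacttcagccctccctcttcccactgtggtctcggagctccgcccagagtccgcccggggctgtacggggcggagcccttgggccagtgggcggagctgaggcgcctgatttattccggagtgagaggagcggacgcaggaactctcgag
The match in Pros1, TTCCAGGAA, begins 92 bases before the start, and these letters occur in 8.3% of the 32851 mouse promoters of the same length. The NF-kB letters occur in 0.353% and the interferon letters in 8.56% of them. None of the 3 motifs was found in the same windows of Axl, Mertk, Mfge8 and Cd47. A match of letters describes the sequence and is no measured binding site.

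After LPS, Pros1 rose and Mfge8 fell in both LPS comparisons, whereas the receptors Axl and Mertk did not pass the test and Cd47 stayed under the fold limit. To be called, a gene needed an adjusted p below 0.05 together with a log2 fold change beyond 0.5 in either direction (edgeR's quasi-likelihood test, Benjamini-Hochberg adjustment over all 770 genes). By this rule 1 of the 5 genes was higher, 1 was lower and 3 were not called, both in LPS against Untreated mice and in Dox+LPS against Dox mice. Over the whole panel 22.7% of the genes were called in LPS against Untreated mice, 16.8% of them higher and 5.97% lower as shares of the panel. In Dox+LPS against Dox mice 26.5% were called, 19.5% higher and 7.01% lower. A count of 2 among 5 genes is too small to be told from these shares. P-values of this test set the difference of group means against the spread between mice, estimated over the 4 groups together. Cortex was measured as bulk tissue, so fewer cells of a type and less RNA per cell cannot be told apart.

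**Figure D1:**
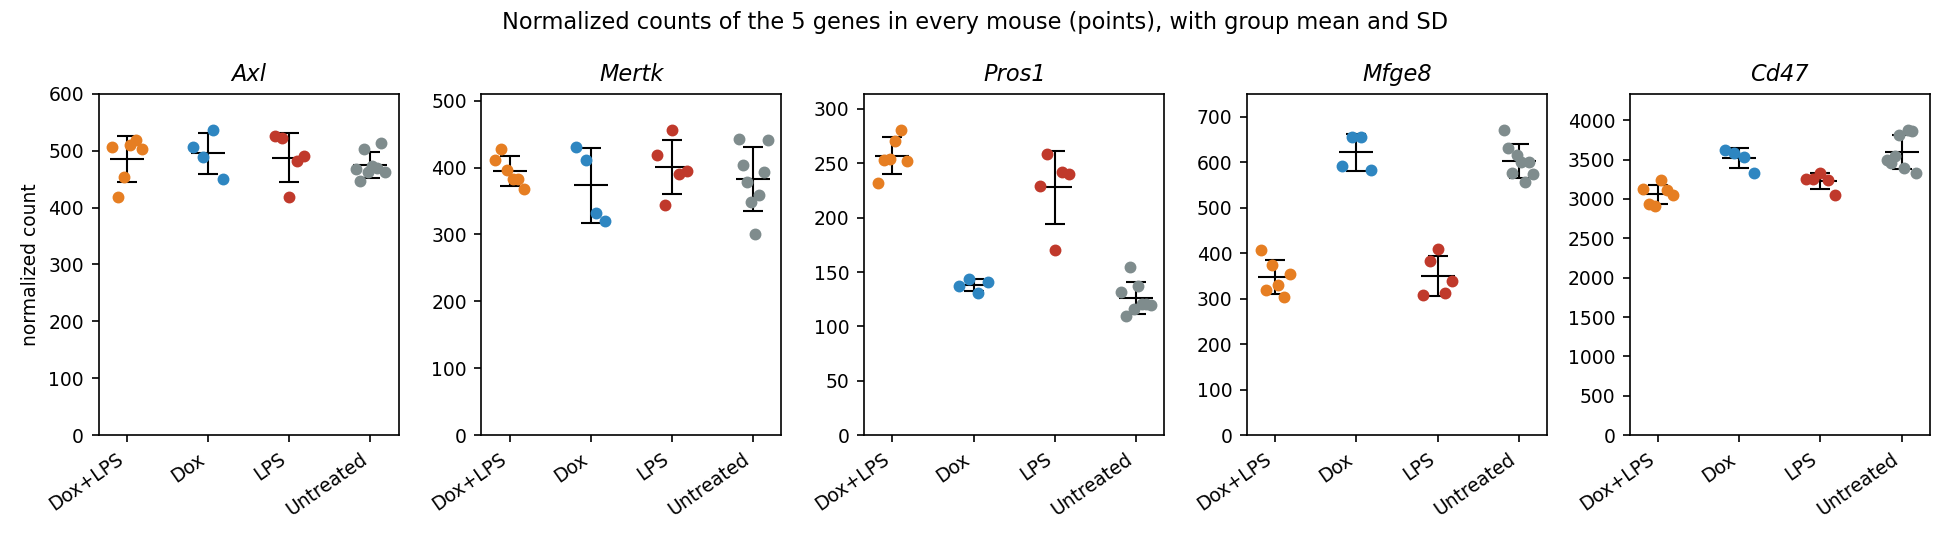
Normalized counts (vertical axis, from 0, a scale of its own for each gene) of Axl, Mertk, Pros1, Mfge8 and Cd47 in every mouse of the Dox+LPS, Dox, LPS and Untreated groups. Points are mice, and the lines mark the group mean and SD. Pros1 lies between 170.5 and 280.5 in the LPS-injected mice and between 109.4 and 154.4 in the saline-injected mice, Mfge8 is separated in the other direction, and Axl and Mertk overlap in every comparison.

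Pros1 encodes protein S, a vitamin K-dependent plasma protein that is also a cofactor of anticoagulation and a ligand of TAM receptors. Its normalized counts were 229.6, 258, 170.5, 242 and 239.8 in the 5 LPS mice, against a lowest value of 109.4, a median of 120.5 and a highest of 154.4 in the 8 Untreated mice. The groups did not overlap, and the lowest LPS mouse and the highest Untreated mouse were replicate 3 of each group, the pair that stood apart in Lcn2. The fold was 1.81 (95% confidence interval 1.59 to 2.05), a log2 fold change of 0.85 with a standard error of 0.088 (adjusted p = 1.953e-08). Without that pair the log2 fold change was 0.99, a larger value fixed in advance by leaving out the mice nearest to the other group. In the 6 Dox+LPS mice Pros1 ranged from 231.7 over a median of 253 to 280.5, against 136.7, 144, 130.7 and 140.7 in the 4 Dox mice. Again the groups did not overlap, and the fold was 1.86 (1.60 to 2.16; log2 fold change 0.90, standard error 0.10, adjusted p = 1.271e-07). All 11 LPS-injected mice lay above all 12 saline-injected mice.

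Mfge8 encodes a secreted glycoprotein, also called lactadherin, which in the mouse brain is made largely by astrocytes. Its normalized counts were 308, 383, 410.0, 313.5 and 339 in the 5 LPS mice, against a lowest value of 556, a median of 600.5 and a highest of 671 in the 8 Untreated mice. The groups did not overlap. Mfge8 in LPS mice was 0.581 times its level in Untreated mice (95% confidence interval 0.523 to 0.646), a log2 fold change of -0.78 with a standard error of 0.074 (adjusted p = 4.92e-09). The highest LPS value was again that of replicate 3, so leaving it out could only deepen the fall. Without the pair of mice that stood apart the log2 fold change was -0.85. In the 6 Dox+LPS mice Mfge8 ranged from 304 over a median of 342 to 406, against 592, 657, 657 and 583 in the 4 Dox mice. These groups were separate too, at 0.560 times the Dox level (0.499 to 0.628; log2 fold change -0.84, standard error 0.080, adjusted p = 6.722e-09). By p-value Mfge8 stood at place 31 and Pros1 at place 48 of the 770 genes in LPS against Untreated mice, and at places 34 and 58 in Dox+LPS against Dox mice.

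Genes whose groups did not overlap were common on this panel, at 26.8% in LPS against Untreated mice, 40.1% in Dox+LPS against Dox mice and 19.5% between all LPS-injected and all saline-injected mice, so the separation of Pros1 and Mfge8 was shared with many other genes. Exact two-sided permutation tests over mice gave p = 0.001554 for each of the 2 genes in LPS against Untreated mice (0.01554 after adjustment over 20 tests). In Dox+LPS against Dox mice the exact permutation p was 0.009524 (0.03175 adjusted). Both are the smallest values that these numbers of mice allow.

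Because both genes are counted in the same tube, the ratio of their raw counts within a mouse does not depend on any scaling. The values are log2 ratios of Pros1 to Mfge8 counts, in which only differences between mice can be read, since probes differ in their yield. The ratio ranged from -0.81 to -0.12 in the 6 Dox+LPS mice, from -1.27 to -0.37 in the 5 LPS mice, from -2.33 to -2.05 in the 4 Dox mice and from -2.53 to -1.90 in the 8 Untreated mice. No LPS-injected mouse reached the range of the saline-injected mice. The mice nearest to the gap were LPS replicate 3 at -1.27 and Untreated replicate 3 at -1.90. This ratio was added after both genes had been tested and restates those tests.

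**Figure D2:**
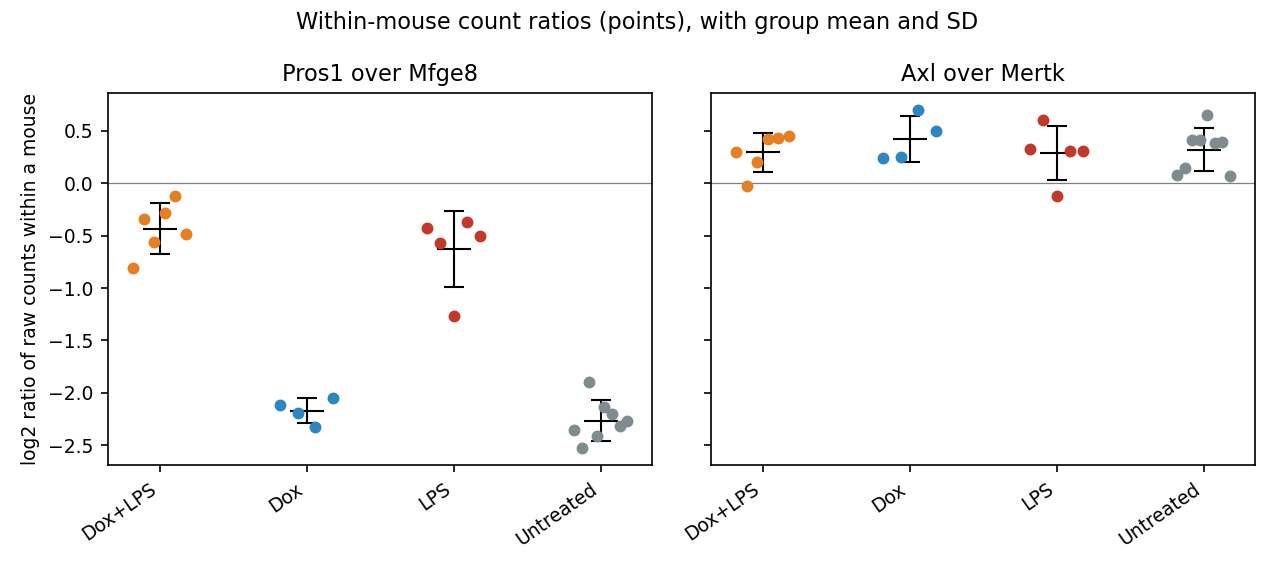
Log2 ratio of raw counts within each mouse (vertical axis) for Pros1 over Mfge8 on the left and Axl over Mertk on the right, in Dox+LPS, Dox, LPS and Untreated mice, with the group mean and SD. The Pros1 to Mfge8 ratio is -1.27 or higher in the LPS-injected mice and -1.90 or lower in the saline-injected mice, and the Axl to Mertk ratio overlaps in all groups.

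Neither of the TAM receptors passed the test in any comparison. Axl is a TAM receptor kinase that is known to be induced on activated phagocytes. Its normalized counts were 525, 522, 419, 483 and 490.1 in the 5 LPS mice, against a lowest value of 447, a median of 468 and a highest of 514 in the 8 Untreated mice. LPS mice lay both above and below the Untreated range, 2 above it and 1 below it. The log2 fold change was 0.039 (95% confidence interval -0.084 to 0.16, adjusted p = 0.61). The 1 LPS mouse below that range was replicate 3, and without the pair of mice that stood apart the value was 0.10 (adjusted p = 0.158), while leaving out single mice gave 0.011 to 0.088. In Dox+LPS mice Axl ranged from 419 over a median of 505 to 518, against 507, 488, 536 and 451 in Dox mice, with a log2 fold change of -0.031 (-0.17 to 0.11, adjusted p = 0.7166). The sign of this value turned with the scaling, to 0.032 with TMM, 0.027 with RLE, 0.14 with housekeeping and 0.066 with positive control scaling. Changes past the fold limit of 0.5 lie outside both 95% intervals.

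Mertk, the TAM receptor kinase on which the uptake of dying cells by macrophages is known to depend, is expressed by microglia and astrocytes. Its normalized counts were 419, 345, 456, 390.0 and 395 in the 5 LPS mice, against a lowest value of 301, a median of 385 and a highest of 443 in the 8 Untreated mice. The groups overlapped, and the log2 fold change was 0.066 (95% confidence interval -0.12 to 0.25, adjusted p = 0.552). Without the pair of mice that stood apart it was 0.013, and leaving out single mice gave 0.016 to 0.12. In Dox+LPS mice Mertk ranged from 367 over a median of 389.8 to 428, against 430.5, 412, 331 and 319.8 in Dox mice (log2 fold change 0.081, -0.12 to 0.29, adjusted p = 0.5135). Under the 41 alternatives this value ranged from 0.014 to 0.26 and never turned its sign. The highest came with housekeeping scaling (adjusted p = 0.06328), under which the median of all genes was 0.11. The Dox group was the most variable of the 4 for this gene, with a coefficient of variation of 15.0%, and Dox+LPS the least variable at 5.54%.

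The log2 ratio of Axl to Mertk counts within a mouse also overlapped between all groups. It ranged from -0.030 to 0.45 in Dox+LPS mice, from -0.12 to 0.60 in LPS mice, from 0.24 to 0.69 in Dox mice and from 0.070 to 0.65 in Untreated mice. The lowest ratio of all was that of LPS replicate 3, the mouse with the lowest Axl count and the highest Mertk count after normalization in its group.

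Cd47 encodes the surface protein that engages the inhibitory receptor SIRP alpha on phagocytes. Its normalized counts were 3248, 3249, 3328, 3244 and 3057 in the 5 LPS mice, against a lowest value of 3325, a median of 3519 and a highest of 3875 in the 8 Untreated mice. Of the LPS mice 4 lay below all Untreated mice, and replicate 3 overlapped them by a narrow margin. The log2 fold change was -0.16 (95% confidence interval -0.24 to -0.074, adjusted p = 0.001996), well inside the fold limit. By adjusted p alone, 29.1% of the panel was lower in this comparison and 31.3% in Dox+LPS against Dox mice. In Dox+LPS mice Cd47 ranged from 2909 over a median of 3077 to 3237, against 3626, 3579, 3529 and 3335 in Dox mice. These groups did not overlap, which held for 40.1% of the panel in this comparison and for 21.6% in the lower direction. The log2 fold change of Cd47 was -0.20 (-0.29 to -0.11, adjusted p = 0.0005288). Of the 11 LPS-injected mice 10 lay below all 12 saline-injected mice.

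The Cd47 result depended on how the mice were scaled, and its adjusted p no longer passed under some scalings. In LPS against Untreated mice the log2 fold change was -0.087 with housekeeping scaling (adjusted p = 0.02988) and -0.042 with positive control scaling (adjusted p = 0.6714). In Dox+LPS against Dox mice it was -0.024 (adjusted p = 0.6485) and -0.10 (adjusted p = 0.3234) with these scalings. These scalings also moved the median of all 770 genes, which was -0.041 and -0.069 in these comparisons with upper quartile scaling, 0.027 and 0.11 with housekeeping scaling, and 0.075 and 0.029 with positive control scaling. Relative to that median Cd47 lay between -0.12 and -0.11 in LPS against Untreated mice and at -0.13 in Dox+LPS against Dox mice under all 5 scalings tried. On that footing Pros1 lay between 0.90 and 0.91 in LPS against Untreated mice and between 0.96 and 0.97 in Dox+LPS against Dox mice, and Mfge8 at -0.74 and -0.77. A change of scaling shifts all genes of a mouse alike, and so also their median. The constancy of these differences was thus fixed in advance and is no test of any of these genes.

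**Figure D3:**
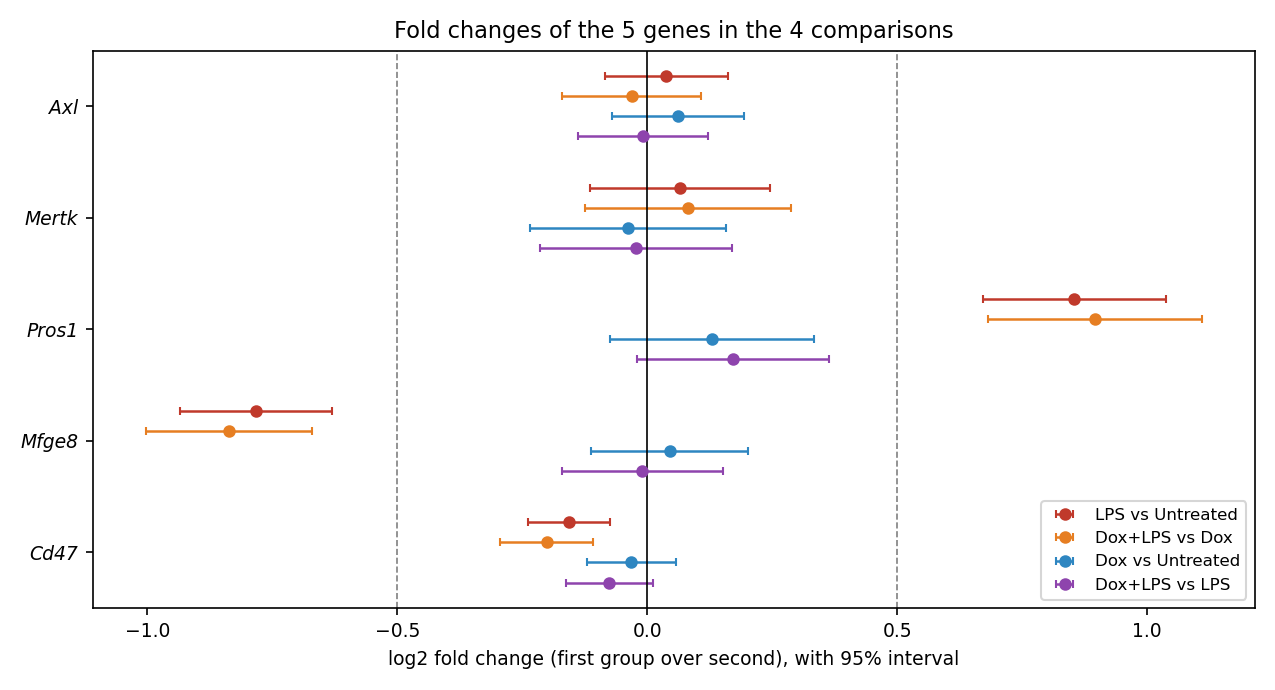
Log2 fold changes (horizontal axis, first group over second) of the 5 genes in LPS over Untreated mice, in Dox+LPS over Dox mice and in the 2 comparisons by earlier dox, with 95% confidence intervals. Dashed lines mark the fold limit of 0.5 in both directions. Pros1 at 0.85 and 0.90 and Mfge8 at -0.78 and -0.84 lie beyond the lines in the LPS comparisons, and all dox comparisons lie between them.

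Whether earlier dox altered these transcripts was asked in saline-injected and in LPS-injected mice. None of the 5 genes was called, as was none of the 770 (0.0% in both comparisons), although 41 genes in Dox against Untreated mice and 102 in Dox+LPS against LPS mice had an unadjusted p under 0.05. In Dox against Untreated mice the largest log2 fold change of the 5 was that of Pros1 at 0.13 (95% confidence interval -0.074 to 0.33, adjusted p = 0.9771), with normalized counts of 138 ± 5.70 (SD, n = 4) in Dox and 126 ± 14.4 (SD, n = 8) in Untreated mice. In Dox+LPS against LPS mice it was again that of Pros1, at 0.17 (-0.021 to 0.36, adjusted p = 0.4375), with 257 ± 16.9 (SD, n = 6) in Dox+LPS and 228 ± 33.8 (SD, n = 5) in LPS mice. Without LPS replicate 3 this difference was 0.084. For Mfge8 the dox comparisons gave 0.045 (-0.11 to 0.20) in Dox against Untreated and -0.0098 (-0.17 to 0.15) in Dox+LPS against LPS mice.

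The group means of Pros1 therefore ran in the order Dox+LPS, LPS, Dox and Untreated, in which the first pair and the last pair did not differ beyond their spread while the step between LPS and saline did. Mfge8 averaged 348 ± 37.8 normalized counts in Dox+LPS (SD, n = 6), 351 ± 44.4 in LPS (n = 5), 622 ± 40.1 in Dox (n = 4) and 603 ± 36.5 in Untreated mice (n = 8), with a single step as well, between LPS and saline. The group means of Axl lay between 475 and 496 and those of Mertk between 373 and 401, with no neighbors that differed beyond their spread. The difference between the LPS responses with and without earlier dox was tested as an interaction. It was 0.041 for Pros1 (-0.24 to 0.32) and -0.055 for Mfge8 (-0.28 to 0.17), and adjusted p for the 5 genes lay between 0.8433 and 0.9743, with 0.0% of the panel called.

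Female against male mice, compared with the group means in the fit, gave log2 fold changes between -0.020 for Pros1 and 0.015 for Mertk (adjusted p between 0.9165 and 0.9559), while 0.26% of the panel was called. In females alone LPS against Untreated mice gave 1.03 for Pros1, -0.90 for Mfge8 and -0.28 for Cd47, from 2 mice each. In males alone, 3 LPS and 6 Untreated mice, the values were 0.77, -0.71 and -0.10. Cd47 was the gene of which the adjusted p no longer passed in males (adjusted p = 0.1163). The difference between the sexes in the response to LPS was not tested.

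Mice of a group also varied around their mean, and the panel genes that varied most like each of the 5 were sought by the correlation of log2 values after subtraction of the group means (572 genes above background in all mice, 23 mice of 4 groups, all points sharing the depth of their mouse). Pros1 varied most like Psmb8, an immunoproteasome subunit (Pearson r = 0.88), Ifitm3, an interferon-induced membrane protein (0.81), and Fcer1g, a signalling chain of Fc receptors (0.81). Without the pair of mice that stood apart these values were 0.73, 0.36 and 0.67 over 21 mice, so the likeness to Ifitm3 rested largely on that pair. Psmb8 had 116 normalized counts in LPS replicate 3, against 329 to 545 in the other LPS mice, and 106 in Untreated replicate 3, against 59.5 to 84.0 in the other Untreated mice. Pros1 and Psmb8 thus deviated in the same mice.

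**Figure D4:**
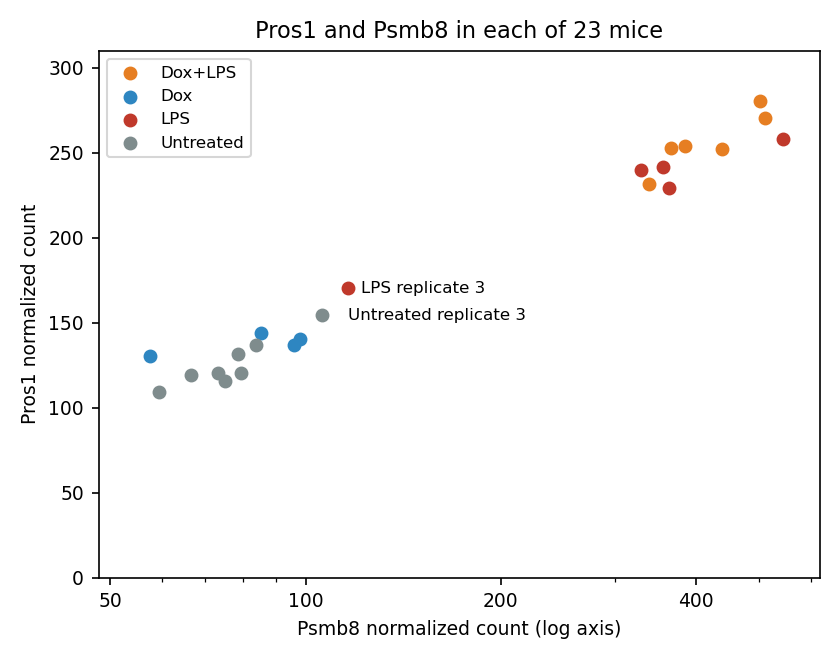
Pros1 normalized counts (vertical axis, from 0) against Psmb8 normalized counts (horizontal log axis) in each of the 23 mice, colored by group. LPS replicate 3, at 116 Psmb8 and 170.5 Pros1 counts, lies near Untreated replicate 3, at 106 and 154, and between the other mice of the LPS-injected and saline-injected groups.

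Axl varied most like Ncf1, a subunit of the phagocyte oxidase (r = 0.75), Bcl2a1a, an anti-apoptotic gene (0.74), and Gbp2, an interferon-induced GTPase (0.73). All 3 of these genes rose after LPS in both LPS comparisons, at log2 fold changes of 1.36, 2.25 and 3.23 in LPS against Untreated mice, while Axl itself did not pass. Mertk varied most like Atp6v0e, a subunit of the vacuolar proton pump (0.73), Dapk1 (0.72) and Ets2 (0.70), none of them called in an LPS comparison. Cd47 varied most like Kdm4c (0.73), Ppp3ca (0.73) and Braf (0.73). For Kdm4c this came from the 12 saline-injected mice (r = 0.91), against 0.20 in the 11 LPS-injected mice. The highest values for Mfge8 were weaker, 0.58 with Dab2, an endocytic adaptor, 0.57 with Ezh2 and 0.56 with Rac1. For each of the 5 genes such values were picked as the highest among 572 genes. How high selection alone would reach was not tested. The value for Ezh2 came from the 11 LPS-injected mice (r = 0.83), against -0.18 in the 12 saline-injected mice. Among the 5 genes themselves r was 0.49 between Axl and Pros1 and -0.45 between Pros1 and Mfge8. Both rested on the pair of mice that stood apart, without which they were 0.084 and -0.17 over 21 mice. Axl and Cd47 stood at 0.36, and at 0.57 without the pair, and Axl and Mertk at -0.26 and -0.12.

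Other genes of dying-cell clearance were grouped by role. Over the panel 16.8% of genes were called higher and 5.97% lower in LPS against Untreated mice. In Dox+LPS against Dox mice the shares were 19.5% and 7.01%, and the counts of each group were not tested against them. Of 8 measured ligands and find-me signals, molecules by which dying cells are tagged or attract phagocytes, 4 were higher and 1 was lower in LPS against Untreated mice, and 5 and 1 in Dox+LPS against Dox mice. Their median log2 fold changes were 0.56 and 0.75, beside -0.041 and -0.069 over all genes. C1qa, C1qb and C1qc, the chains of the complement opsonin C1q, rose together, and C1qb had 2285 ± 275 (SD, n = 5) normalized counts in LPS against 1093 ± 211 (SD, n = 8) in Untreated mice (log2 fold change 1.06, adjusted p = 2.241e-08). Cx3cl1, a neuronal chemokine that draws phagocytes, fell to 1108 ± 95.2 in LPS mice, against 1609 ± 147 in Untreated mice (log2 fold change -0.54, adjusted p = 7.537e-06).

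The 13 measured clearance receptors moved in both directions, with 5 higher and 4 lower in LPS against Untreated mice and 5 higher and 3 lower in Dox+LPS against Dox mice (medians -0.018 and -0.18). P2ry12 and Gpr34, purinergic and lysophosphatidylserine receptors of resting microglia, fell with log2 fold changes of -2.26 and -2.32 in LPS against Untreated mice, and of -2.54 and -2.77 in Dox+LPS against Dox mice. The scavenger receptor Msr1 had 88.9 to 688.5 normalized counts in the 5 LPS mice, against 9.13 to 19.5 in the 8 Untreated mice, all of them under background. Marco, another scavenger receptor, had 17.8 to 225 in LPS mice, of which 4 of 5 were above background, and was under background in all 8 Untreated mice. Both receptors were called higher in both LPS comparisons.

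Of 5 measured genes listed as inhibitory signals and receptors, 3 were higher and none was lower in both LPS comparisons. Cd47 belongs to this group by role. The medians of the 5 genes, 0.94 and 1.39, were the values of Siglec1 itself. This gene was under background in 15 mice, so the medians rest on counts near background. Lilrb4a, an inhibitory receptor of myeloid cells, had 101 ± 28.4 (SD, n = 5) normalized counts in LPS and 25.7 ± 7.96 (SD, n = 8) in Untreated mice (log2 fold change 1.97, adjusted p = 8.071e-08). Pilra and Siglec1 were called as well, from levels under background in 7 of 8 Untreated mice each. Siglec1 was also under background in 2 of 5 LPS mice. Whether Siglec1 acts as an inhibitory receptor was not tested. Cd24a, like Cd47 a don't-eat-me signal, had a log2 fold change of -0.43 in LPS against Untreated mice and of -0.10 in Dox+LPS against Dox mice and was not called.

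Of 13 genes of engulfment signalling and cargo handling, 4 were higher in LPS against Untreated mice and 3 in Dox+LPS against Dox mice, and none was lower (medians 0.23 and 0.34). These counts are too small to be told from the panel shares, 16.8% and 19.5% higher and 5.97% and 7.01% lower. Tgm2, a transglutaminase that acts with Mfge8 and integrins at the phagocyte surface, rose to 366 ± 41.0 (SD, n = 5) normalized counts in LPS mice, against 119 ± 25.1 (SD, n = 8) in Untreated mice (log2 fold change 1.62, adjusted p = 3.339e-11). Vav1, an exchange factor for Rac proteins, and Tyrobp, an adaptor of microglial receptors, rose with log2 fold changes of 0.74 and 0.57. Lamp2, a lysosomal membrane protein, stayed under the fold limit at 0.21. No gene of these groups was called in Dox against Untreated or in Dox+LPS against LPS mice.

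Markers of cell types moved in the same mice. In LPS against Untreated mice 4 of 9 microglia markers were lower and 1 was higher, with sums of 2700 to 3773 normalized counts in LPS and 3948 to 4657 in Untreated mice. Of 5 macrophage and monocyte markers 3 were higher, with sums of 272 to 1180 in LPS and 149 to 577 in Untreated mice, and Ccr2 was above background in 1 of 5 LPS and 1 of 8 Untreated mice. Both lists share genes with the clearance receptors, P2ry12 and Gpr34 among the lower microglia markers and Msr1 and Marco among the higher macrophage markers. Of 10 oligodendrocyte markers 7 were lower, with sums of 21231 to 24373 in LPS and 29315 to 36950 in Untreated mice. Astrocyte markers, of which 1 of 6 was higher and none was lower, summed to 14277 to 15797 in LPS and 14659 to 15983 in Untreated mice. The higher one was Aldh1l1 at a log2 fold change of 0.61 (adjusted p = 1.28e-10). By adjusted p alone 2 of the 6 were lower, Gja1 at -0.19 and S100b at -0.16, beside 29.1% of the panel. In Dox+LPS against Dox mice none of the 6 astrocyte markers was called. Their sums did not overlap there by a narrow gap, at 14657 to 15350 in Dox+LPS and 15630 to 16537 in Dox mice. Endothelial markers, 1 of 5 higher in LPS against Untreated mice, summed to 2268 to 2458 in LPS and 1690 to 2536 in Untreated mice. Of 9 neuron markers none was called, but by adjusted p alone 6 were lower and 1 was higher, with sums of 39551 to 43368 in LPS and 44469 to 49178 in Untreated mice. In Dox+LPS against Dox mice 8 of the 9 were lower by adjusted p alone, with sums of 37603 to 40064 in Dox+LPS and 43913 to 49280 in Dox mice. These sums did not overlap between LPS-injected and saline-injected mice. Of 3 neutrophil markers, Lcn2, which other cells of the inflamed brain also make, was higher at a log2 fold change of 6.31, Csf3r was not called and was above background in all but 1 of the 23 mice, and Ly6g was under background in all of them. The part of these shifts in the values of Pros1, Mfge8 and Cd47 was not tested.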

How the data were processed

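Cortical RNA of 23 mice was hybridized to the nCounter Mouse Neuroinflammation panel. The authors deposited the instrument's counts per probe and mouse without normalization. These deposited values are classed as estimated counts, since decimals stand in the instrument lines above them, but each probe value is whole. A column that matched no mouse (1 in all) was left out, and so was a second table, of values the authors normalized with RUVg. Their notes name edgeR 3.38.4. A genome build is not given in the sources used here. Groups follow the labels.

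Counts of 770 genes (757 endogenous, 13 housekeeping), 645971 to 804471 per mouse, were scaled by the upper quartile and tested without a filter by the quasi-likelihood test of edgeR 4.0.16 (R 4.3.3), fitted as 4 group means over the 23 mice, and Benjamini-Hochberg adjustment. Normalized counts are counts divided by relative scaled library size, and correlations used log2 values with a pseudocount of 1. The method was tested on simulated data. Named are the 5 genes, of each clearance list up to 4 genes with the smallest p in LPS against Untreated mice, and the 3 panel genes most like each of the 5 genes. Lcn2, Ccr2, Ly6g, Csf3r, Aldh1l1, Gja1 and S100b were chosen outside this rule, with their values in view. The 5 genes, the lists and the tests were chosen with earlier results of these data known.

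The alternatives changed the scaling (TMM, RLE, housekeeping genes, positive controls), the test (likelihood ratio, also with 1 or 2 RUVg factors computed from the published description, DESeq2 1.42.0, limma-voom 3.58.1, exact permutation), the count filter, the background, the fold limit, the mice (each left out, a pair or 3 left out, each sex, only the groups compared) and sex as a covariate. Promoters came from RefSeq (GRCm38.p6), and all 5 genes were matched by accession.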

Additional observations from a re-analysis of the deposited data

How the results depend on the processing

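Pros1 and Mfge8 kept their direction and their call under all 42 alternatives tried in LPS against Untreated mice and all 41 tried in Dox+LPS against Dox mice. Pros1 ranged from 0.76 to 1.03 and from 0.86 to 1.07 in these comparisons, and Mfge8 from -0.90 to -0.67 and from -0.89 to -0.66. Many of these alternatives could hardly remove a call. Some left out mice of neither group compared, and dropping the fold limit only loosens the rule. With no fold limit Cd47 was called at -0.16 and -0.20, so that 2 of the 5 genes were lower, and 224 and 241 panel genes were lower. In Dox+LPS against Dox mice 180 panel genes were higher and 26 lower with housekeeping scaling, 163 and 34 with positive control scaling, against 150 and 54 with the upper quartile. The signs of small differences turned 81 times, none of a called result, with adjusted p of 0.138 or more, and the causes were not tested.

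With housekeeping scaling Axl turned to 0.14 in Dox+LPS against Dox, -0.013 in Dox against Untreated, 0.023 in Dox+LPS against LPS and 0.036 in the interaction, Mertk to 0.017 in Dox+LPS against LPS, Mfge8 to -0.029 in Dox against Untreated, 0.029 in Dox+LPS against LPS and 0.059 in the interaction, and Cd47 to 0.062 in the interaction. With positive control scaling Axl turned to 0.066 in Dox+LPS against Dox and 0.012 in Dox+LPS against LPS, Mertk to 0.0025 in Dox against Untreated and 0.0073 in Dox+LPS against LPS, Mfge8 to 0.016 in Dox+LPS against LPS, and Cd47 to 0.012 in Dox against Untreated. Axl in Dox+LPS against Dox mice was 0.032 with TMM, 0.027 with RLE and 0.025 with DESeq2. With 1 or 2 RUVg factors Axl was -0.014 in LPS against Untreated and 0.011 in Dox+LPS against LPS mice. In females Axl was -0.0076 in LPS against Untreated, Mertk 0.077 in Dox against Untreated, 0.016 in Dox+LPS against LPS and -0.061 in the interaction, Pros1 -0.14 in the interaction, Mfge8 0.099 in Dox+LPS against LPS and 0.036 in the interaction, and Cd47 0.011 in the interaction. In males Axl was 0.065 in Dox+LPS against LPS. Without LPS replicate 3 and Untreated replicate 3, Mertk was 0.028 and Mfge8 0.052 in Dox+LPS against LPS, Pros1 -0.094 and Mfge8 0.016 in the interaction, and Mfge8 0.0078 in female against male mice. Without 3 Untreated mice of another number series, Mertk was -0.017 in the interaction and Cd47 -0.0048 in female against male mice. With limma-voom Mfge8 was 8.0e-06 in female against male mice.

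With each mouse left out in turn, Axl ranged from -0.074 to 0.0087 in Dox+LPS against Dox, from -0.058 to 0.030 in Dox+LPS against LPS and from -0.039 to 0.019 in female against male mice. Mertk ranged from -0.11 to 0.030 in Dox against Untreated, from -0.072 to 0.028 in Dox+LPS against LPS, from -0.052 to 0.091 in the interaction and from -0.031 to 0.044 by sex. Mfge8 ranged from -0.058 to 0.052 in Dox+LPS against LPS, from -0.10 to 0.0068 in the interaction and from -0.037 to 0.018 by sex, Pros1 from -0.046 to 0.090 in the interaction and from -0.061 to 0.0028 by sex, and Cd47 from -0.0064 to 0.026 by sex. No paired analysis was possible because the labels give no replicate numbers that pair mice across groups. The number of mice, 4 to 8 per group, limits the precision of the dox comparisons, and counts at background limit Marco, Msr1, Pilra and Siglec1.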
